A study of Homo sapiens with 12 samples.

Results

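The genes described here are the DEAD and DEAH box RNA helicases, taken as every gene of the array annotation whose symbol starts with DDX or DHX and a digit, Y-linked genes left out. The rule found 43 of the 9581 named genes of the table, 29 DDX and 14 DHX genes, measured by 57 of 15025 probes. It used names only and no measured value, but members and lists were chosen with earlier results of these data known. RNA was measured on 12 Illumina bead arrays in 4 groups of 3. The first group is RNA pulled down from HEK293T, a cell line of human embryonic kidney origin with SV40 large T antigen, after transfection with a biotinylated duplex of miR-3118-3p, and the second is the input of such cells. The third is RNA pulled down after transfection with a biotinylated duplex of miR-4307-3p, and the fourth is its input. Every group, inputs included, had received 200 pmol of its synthetic duplex with HiPerFect reagent and was harvested after 24 hours. Streptavidin beads, which bind biotin, were used for the pull-downs. The labels name no untransfected cells, no unrelated biotinylated duplex and no separate cultures. The p-values therefore reflect spread between arrays alone, and that spread may be technical.

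The design asked which RNAs are recovered with each microRNA. A microRNA pairs with RNA mainly through its seed, bases 2 to 8, and the seeds of the 2 microRNAs are shown because they are the part by which target recognition could differ. The labels give no sequence for the duplexes, so the mature sequences are those of RefSeq (GRCh38.p14), 5′ to 3′, with the seed in capitals.
miR-3118-3p: uGUGACUGcauuaugaaaauucu
miR-4307-3p: aAUGUUUUuuccuguuucc
The first lists as hsa-miR-3118 and is encoded in 4 copies, at chr15:20832838-20832860, chr15:21406428-21406450 and chr15:21843793-21843815 on the plus strand and at chr21:13644784-13644806 on the minus strand. The second lists as hsa-miR-4307, at chr14:26908697-26908715 on the plus strand. Both lie in the 3′ arm of their hairpins. The 7-base seed of miR-3118-3p holds 4 G or C bases and that of miR-4307-3p 1, and their complements in RNA read CAGUCAC and AAAACAU. Transcript sequences were not used here, so no seed site was looked for in a helicase mRNA.

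DEAD box proteins are named after a motif in the helicase core with which they bind and hydrolyse ATP, and DEAH box proteins carry a variant of it. DEAD box proteins mostly pry apart short RNA duplexes locally, while many DEAH box proteins move along 1 strand. In human cells they drive ribosome assembly in the nucleolus, the steps of the spliceosome, export of mRNA, translation, decay of RNA and the sensing of viral RNA.

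Values are log2 signals as deposited, and differences are pull-down minus input in log2 units, given ± the limma standard error (SE), with 3 arrays per group. A member passed the test when limma's p-value, adjusted by Benjamini-Hochberg over all 9581 genes, was under 0.05, and rose, fell, higher and lower are used of such members. All arrays had nearly equal medians (7.53 to 7.59), so a rise is a rise relative to the other RNA on the array, and recovery in absolute terms is unknown. Among the miR-3118-3p pull-downs, replicate 1 was the outlying array (its correlations to the others were 0.963 and 0.968), and the median SD over genes in that group was 0.230, against 0.128 to 0.135 in the others. Over the 43 helicases the median SD was 0.250 in the miR-3118-3p pull-down, 0.180 in its input, 0.144 for the pull-down of miR-4307-3p and 0.182 in its input. Of 7 genes listed as known from HEK293 cells 6 were in the table, the RNA-binding protein gene LIN28B the brightest, and PAX2 was not. Group means were 10.3 to 11.23 for LIN28B, 7.06 to 8.83 for NEFM, INA, ENO2 and SALL2, and only 6.45 to 6.68 for NEFL. Of 13 blood, hepatocyte, fibroblast and epithelial markers the table held 5 (ALB, COL1A1, EPCAM, KRT8 and KRT18), with group means of 5.86 to 6.75, where the lowest values of the arrays were 5.53 to 5.72. Of these 5, KRT18 fell with both microRNAs and ALB with miR-3118-3p. Of the 6 HEK293 genes, LIN28B rose with both (0.82 ± 0.19 with miR-3118-3p and 0.83 ± 0.19 with miR-4307-3p) and NEFM with miR-4307-3p (0.57 ± 0.14). The part of these markers in the results was not tested.

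With miR-4307-3p, 9 of 43 helicase mRNAs rose and 1 fell, and 33 did not pass. Over all genes 8.04% rose and 6.11% fell, against 20.9% and 2.33% of the helicases. The median helicase difference was 0.15, against -0.02 over all genes. Those that rose were DDX10, DDX52, DDX1, DDX50, DDX27, DDX5, DHX40, DDX23 and DDX21, by 1.89 to 0.65, and the one that fell was DDX17. With miR-3118-3p, 6 rose (DHX40, DDX1, DHX33, DDX50, DDX55 and DHX35) and 3 fell (DDX39A, DDX27 and DDX19B), none by as much as 0.7. Here 12.7% of all genes rose and 10.9% fell, against 14.0% and 6.98% of the helicases, so the shares were near the background, and the median was -0.01 against 0.00. DDX1, DDX50 and DHX40 rose with both microRNAs.

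The counts depended on single arrays, and those over all genes moved as well. With miR-4307-3p the count of 9 was 4 without pull-down replicate 2 and also without input replicate 3, where DDX10, DDX52, DDX1 and DDX50 remained, and 6 without any of pull-down replicates 1 and 3 and input replicate 1. Over all genes 5.57% rose without that pull-down array and 5.98% without that input array. The outlying miR-3118-3p array adds only to the pooled variance here, and without it 10 rose and 2 fell, where 1051 and 964 of all 9581 genes did, in place of 770 and 585. With miR-3118-3p, 7 rose and 4 fell when the same array was left out, DDX3X, DHX29 and DDX41 being gained and DHX35 lost, and 17.7% of all genes rose and 15.2% fell. The 6 rises there became 2 without pull-down replicate 2, 1 without input replicate 1 and 2 without input replicate 2. The 3 falls became 0 without pull-down replicate 2, 6 without pull-down replicate 3 and 1 without input replicate 2 or 3. In these settings 8.48% to 13.0% of all genes rose and 6.51% to 11.7% fell. With the spread taken from the 6 arrays of miR-3118-3p alone, 1 rose (DHX33) and 1 fell (DDX39A).

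**Figure D1:**
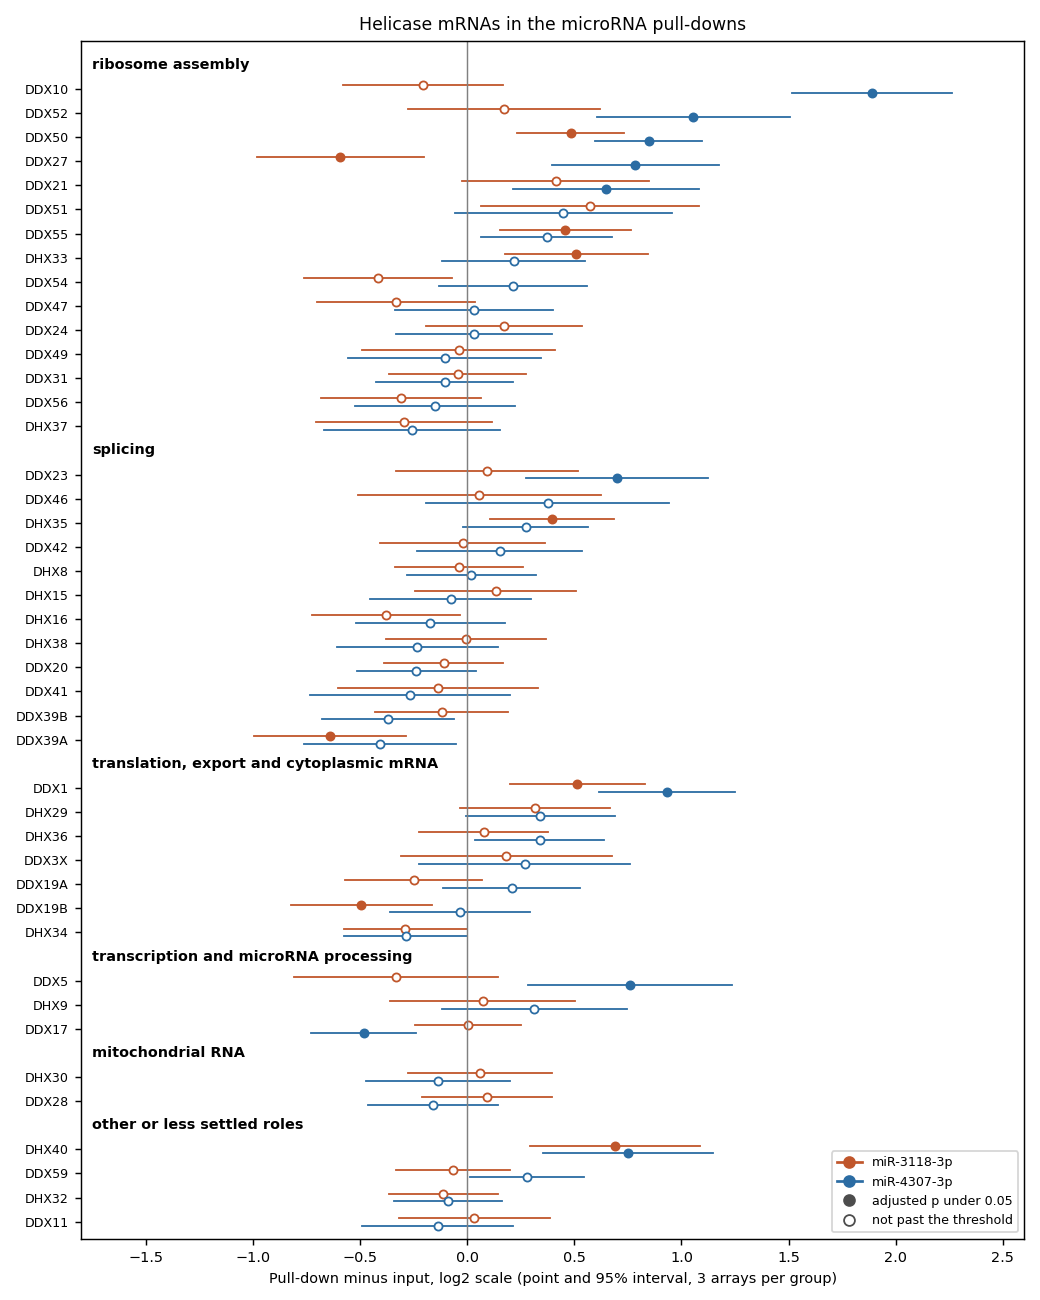
Pull-down minus input on the log2 scale (x axis) for each of the 43 helicases (y axis, grouped by role), with miR-3118-3p in orange and miR-4307-3p in blue; lines are 95% intervals of the fit over 3 arrays per group, and filled points passed the test. DDX10 lies at 1.89 with miR-4307-3p and at -0.21 with miR-3118-3p, and DDX27 passed in opposite directions.

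Ribosome assembly had the most helicases of the table, 15, and 5 of them rose and 0 fell with miR-4307-3p, while 3 rose and 1 fell with miR-3118-3p. These are 33.3% and 0% of the 15 with miR-4307-3p, where 8.04% and 6.11% of all genes were called, and 20.0% and 6.67% with miR-3118-3p, where 12.7% and 10.9% were. The median differences of these 15 were 0.22 with miR-4307-3p and -0.04 with miR-3118-3p.

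DDX10 is a nucleolar protein whose yeast counterpart acts in assembly of the small ribosomal subunit. Its log2 signal was 10.55, 11.12 and 11.06 in miR-4307-3p pull-downs, against 8.95, 9.12 and 8.99 in its input. The lowest pull-down value was thus well above the highest input value. The difference was 1.89 ± 0.18 (adjusted p = 2.74e-06), and DDX10 ranked 23 of 9581 genes from the highest. In the miR-3118-3p pull-down DDX10 had 8.50, 8.85 and 9.18, against 8.92, 9.05 and 9.18 in its input, so these groups overlapped. The difference with miR-3118-3p was -0.21 ± 0.18 and did not pass.

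DDX52, whose yeast counterpart Rok1 acts in the small subunit's assembly, had 9.89, 10.15 and 10.08 in miR-4307-3p pull-downs, against 8.98, 9.25 and 8.73 in its input. No values overlapped, and the difference was 1.06 ± 0.21 (adjusted p = 0.00317), or 0.68 with its probes averaged (adjusted p = 0.0183). In the miR-3118-3p groups the arrays overlapped, with 9.014, 9.367 and 9.855 in the pull-down and 8.997, 9.062 and 9.658 in the input, and the difference of 0.17 ± 0.21 did not pass.

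DDX50 and DDX21 are nucleolar paralogues, and DDX21 takes part in both transcription and processing of ribosomal RNA. DDX50 had 10.12, 10.15 and 10.30 in miR-4307-3p pull-downs, against 9.25, 9.41 and 9.36 in its input. In the miR-3118-3p pull-down it had 9.91, 10.10 and 9.93, against 9.45, 9.60 and 9.43 in its input. Both pull-downs lay above both inputs on every array. DDX50 rose by 0.85 ± 0.12 with miR-4307-3p (adjusted p = 0.000145) and by 0.48 ± 0.12 with miR-3118-3p (adjusted p = 0.00842). The miR-3118-3p call was lost with the spread of those 6 arrays alone (adjusted p = 0.0537).

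DDX21 had 10.59, 11.10 and 10.54 in miR-4307-3p pull-downs, against 10.17, 10.33 and 9.80 in its input, and rose by 0.65 ± 0.20 (adjusted p = 0.0456). Its groups did not overlap, but the call stood close to the threshold. It was lost without any 1 of the 6 miR-4307-3p arrays or without miR-3118-3p input replicate 2 (adjusted p from 0.0534 to 0.209), and with median scaling (0.0514). With miR-3118-3p the difference of 0.41 ± 0.20 did not pass (adjusted p = 0.159), and with the replicate number as a block within each microRNA it did (adjusted p = 0.0260).

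DDX27, which acts in processing of ribosomal RNA for the large subunit, passed in both comparisons with opposite signs. It had 8.12, 8.64 and 8.26 in miR-4307-3p pull-downs, against 7.79, 7.67 and 7.21 in its input. It had 7.27, 6.84 and 7.27 in miR-3118-3p pull-downs, against 7.58, 7.64 and 7.95 in its input. Every miR-4307-3p pull-down value lay above its inputs and every miR-3118-3p pull-down value below its inputs. DDX27 rose by 0.78 ± 0.18 with miR-4307-3p (adjusted p = 0.00906) and fell by 0.59 on the log2 scale with miR-3118-3p (SE 0.18, adjusted p = 0.0293). The rise was not called without miR-4307-3p pull-down replicate 2 (adjusted p = 0.0589) or input replicate 3 (0.0557). The fall was not called without miR-3118-3p pull-down replicate 2 (0.121), input replicate 2 (0.0593) or input replicate 3 (0.124), nor with the 6 arrays alone (0.0575).

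DHX33, a nucleolar protein of ribosomal RNA synthesis, had 9.21, 9.33 and 9.24 in miR-3118-3p pull-downs, against 8.75, 8.80 and 8.70 in its input. These values were tight and apart, and DHX33 rose by 0.51 ± 0.16 (adjusted p = 0.0291). The call was lost without miR-3118-3p pull-down replicate 2 (0.0797) or any of input replicates 1, 2 and 3 (0.0706, 0.0639 and 0.0862). With miR-4307-3p DHX33 had 8.61, 9.17 and 9.19 in the pull-down, against 8.64, 8.64 and 9.04 in its input, and the difference of 0.22 ± 0.16 did not pass.

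DDX55, whose yeast counterpart Spb4 acts in the large subunit's assembly, had 9.23, 9.72 and 9.80 in miR-3118-3p pull-downs, against 9.04, 9.08 and 9.25 in its input. Pull-down replicate 1 lay just below the highest input, so DDX55 was the only called helicase whose groups overlapped. It rose by 0.46 ± 0.14 (adjusted p = 0.0320), or by 0.64 ± 0.12 without that array (adjusted p = 0.00119). The call was lost without pull-down replicate 2 (0.107) or 3 (0.110), without input replicate 1 (0.100) or 2 (0.0941), and with the 6 arrays alone (0.120). With miR-4307-3p the difference was 0.37 ± 0.14 and did not pass (adjusted p = 0.102), although no values overlapped. It passed with the replicate block within each microRNA (adjusted p = 0.0459), with the 6 miR-4307-3p arrays alone, with array weights, with cyclic loess and when the outlying miR-3118-3p array was left out (0.0230).

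The other 8 nucleolar and ribosome assembly helicases did not pass with either microRNA. DDX51, which acts on the end of the large ribosomal RNA, stood at 0.57 ± 0.24 with miR-3118-3p (adjusted p = 0.0957) and at 0.45 ± 0.24 with miR-4307-3p (adjusted p = 0.239). DDX51 passed in 3 of 23 other settings in each comparison, among them the replicate block within each microRNA (0.00437 and 0.0252) and, with miR-3118-3p, without pull-down replicate 3 (0.00971). Its second, dimmer probe stood at -0.03 ± 0.17 with miR-3118-3p and at -0.08 ± 0.17 with miR-4307-3p, and with the probes averaged DDX51 was at 0.27 and 0.185 in these comparisons. DDX54 had 6.30, 6.46 and 6.76 in miR-3118-3p pull-downs, against 6.70, 6.88 and 7.18 in its input, a difference of -0.41 ± 0.16 that did not pass (adjusted p = 0.0753). It passed with that block (0.0157) and without pull-down replicate 3 (0.0309). DDX47, DDX24, DDX49, DDX31, DDX56 and DHX37 lay between -0.33 and 0.17 with miR-3118-3p and between -0.26 and 0.03 with miR-4307-3p.

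**Figure D2:**
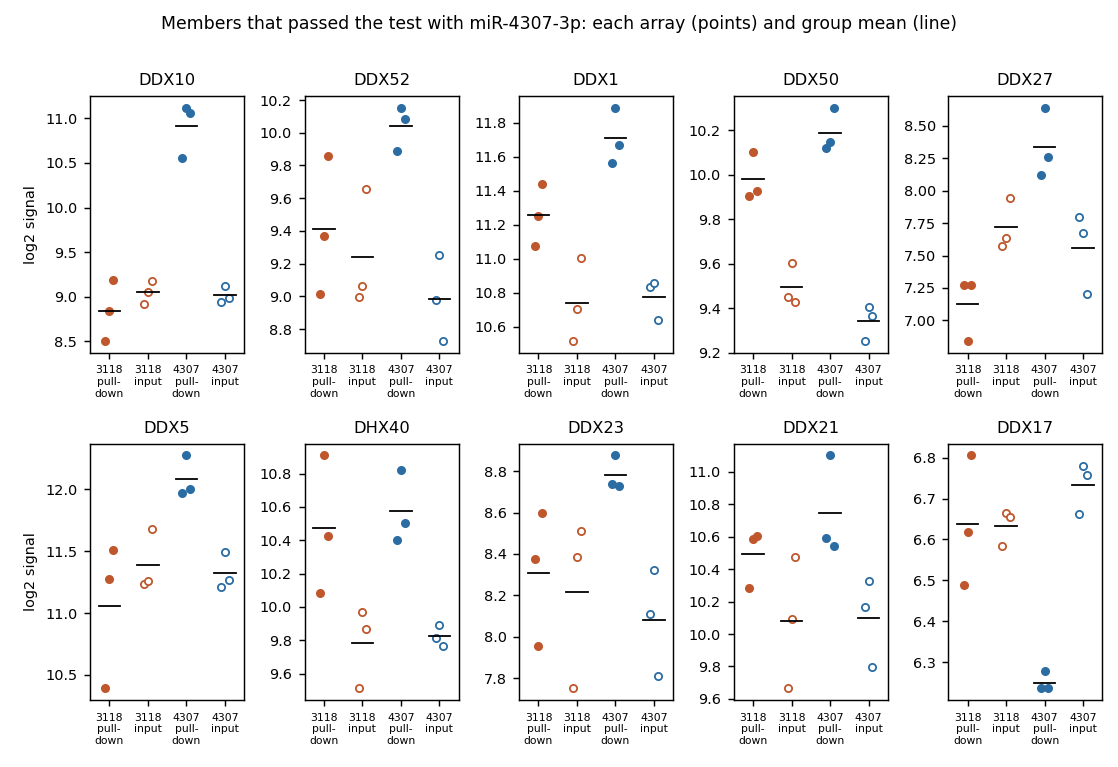
Log2 signal (y axis, its own range in each panel) on each array for the 10 helicases that passed with miR-4307-3p; filled points are pull-downs, open points inputs, and lines group means of 3 arrays. In each panel the miR-4307-3p pull-down points lie above its input points, except for DDX17, where they lie below.

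Of 12 splicing helicases, 1 rose and 0 fell with miR-4307-3p, and 1 rose and 1 fell with miR-3118-3p. These are 8.33% and 0% of the 12 with miR-4307-3p, where 8.04% and 6.11% of all genes were called. The shares with miR-3118-3p were 8.33% and 8.33%, where 12.7% and 10.9% of all genes were called. DDX23 is the counterpart of yeast Prp28, a U5 snRNP protein that helps exchange U1 for U6 at the start of a splicing cycle. It had 8.74, 8.88 and 8.73 in miR-4307-3p pull-downs, against 8.11, 8.32 and 7.81 in its input, with no overlap, and rose by 0.70 ± 0.20 (adjusted p = 0.0284). The call was lost without miR-4307-3p pull-down replicate 1, 2 or 3 (0.0597, 0.103 and 0.0764) or input replicate 1 or 3 (0.0737 and 0.131). With miR-3118-3p its arrays overlapped and the difference was 0.09 ± 0.20.

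DHX35, a component of the catalytic spliceosome, had 7.16, 6.84 and 6.85 in miR-3118-3p pull-downs, against 6.63, 6.52 and 6.51 in its input. No values overlapped, and it rose by 0.40 ± 0.14, the call closest to the threshold (adjusted p = 0.0470). That call held in 7 of 23 other settings and was lost in 16 (adjusted p from 0.0510 to 0.128), among them each setting that left out 1 miR-3118-3p array, pull-down replicate 3 excepted. Without pull-down replicate 1, which held its highest value, the difference was 0.29 ± 0.14 (adjusted p = 0.113).

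DDX39A and DDX39B are close paralogues that act in splicing and couple it to mRNA export. DDX39A had 10.17, 9.93 and 10.41 in miR-3118-3p pull-downs, against 10.80, 10.92 and 10.72 in its input. All 3 pull-down values were below all input values, and DDX39A fell by 0.64 on the log2 scale (SE 0.17, adjusted p = 0.0124), the lowest difference among the helicases there. The call was lost without pull-down replicate 2 (0.0549) or input replicate 2 (0.0535). With miR-4307-3p it stood at -0.41 ± 0.17, which did not pass (adjusted p = 0.120), and passed with the replicate block within each microRNA (0.0488), with array weights (0.00978) and without input replicate 3 (0.0464). DDX39B had 10.46, 10.57 and 10.62 in miR-4307-3p pull-downs, against 10.94, 10.97 and 10.85 in its input, without overlap. Its difference of -0.37 ± 0.14 did not pass (adjusted p = 0.107). It passed with array weights, with the spread of the 6 miR-4307-3p arrays and when the outlying miR-3118-3p array was left out (adjusted p = 0.0218), and the value with miR-3118-3p was -0.12 ± 0.14.

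The other splicing helicases did not pass. DDX46, counterpart of yeast Prp5, had the widest spread of all helicases, with 7.27, 8.42 and 8.49 in miR-3118-3p pull-downs (SD 0.68), against 7.61, 7.98 and 8.43 in its input. The differences of DDX46 were 0.06 ± 0.27 with miR-3118-3p and 0.38 ± 0.27 with miR-4307-3p. With miR-4307-3p all its pull-down values lay above its inputs, and DDX46 passed with the spread of those 6 arrays alone (adjusted p = 0.0428). DDX41 also spread widely, with 8.28, 7.09 and 7.35 in miR-3118-3p pull-downs, against 7.88, 7.66 and 7.59 in its input. Its difference was -0.14 ± 0.22 with all arrays and -0.49 ± 0.14 without pull-down replicate 1 (adjusted p = 0.0126). With miR-4307-3p DDX41 lay at -0.27 ± 0.22. The helicases that drive successive steps of the spliceosome in yeast and human cells, DHX16 (Prp2), DHX38 (Prp16), DHX8 (Prp22) and DHX15 (Prp43), lay between -0.38 and 0.13 with miR-3118-3p and between -0.23 and 0.02 with miR-4307-3p. Of these, DHX16 was called lower with miR-3118-3p without input replicate 1 and without pull-down replicate 3. DDX42 and DDX20 lay within 0.24 of 0 in both comparisons.

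Among 7 helicases of translation, export and cytoplasmic RNA, DDX1 rose with both microRNAs. In that group 1 rose (14.3%) and 0 fell with miR-4307-3p, where 8.04% and 6.11% of all genes did. The counts with miR-3118-3p were 1 and 1 (14.3% each), where 12.7% and 10.9% of all genes were called. DDX1 is a subunit of the tRNA ligase complex, which joins exons in tRNA splicing and in the unfolded protein response. It had 11.57, 11.89 and 11.67 in miR-4307-3p pull-downs, against 10.83, 10.85 and 10.64 in its input. It had 11.08, 11.25 and 11.44 in miR-3118-3p pull-downs, against 10.515, 10.706 and 11.004 in its input. Neither pair of groups overlapped. The rises were 0.93 ± 0.15 with miR-4307-3p (adjusted p = 0.000495) and 0.51 ± 0.15 with miR-3118-3p (adjusted p = 0.0215). The miR-4307-3p call held in 23 of 23 other settings. The miR-3118-3p call was lost without input replicate 1 (0.100) or 2 (0.0672), without pull-down replicate 3 (0.0696), and with the 6 arrays alone (0.0812).

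DDX19A and DDX19B are near-identical paralogues that release mRNA from export factors at the nuclear pore, and their probes may share signal. DDX19B had 8.23, 8.33 and 8.35 in miR-3118-3p pull-downs, against 8.69, 8.67 and 9.03 in its input, all lower, and fell by 0.49 on the log2 scale (SE 0.15, adjusted p = 0.0305). The call was lost without pull-down replicate 2 (0.0606) or input replicate 3 (0.140), with the 6 arrays alone (0.0637) and with array weights (0.0507). DDX19A had 8.21, 8.12 and 8.37 in miR-3118-3p pull-downs, against 8.397, 8.611 and 8.454 in its input, likewise without overlap, but its difference of -0.25 ± 0.15 did not pass. With miR-4307-3p neither passed, at -0.03 ± 0.15 for DDX19B and 0.21 ± 0.15 for DDX19A.

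DDX3X, which promotes translation of mRNAs with structured leaders, stood at 0.18 ± 0.23 with miR-3118-3p and 0.27 ± 0.23 with miR-4307-3p. The first miR-3118-3p pull-down array read 9.40, where the others read 10.29 and 10.49, and without that array the difference was 0.51 ± 0.17 (adjusted p = 0.0313). DHX29, which helps the small subunit scan structured leaders, stood at 0.32 ± 0.16 with miR-3118-3p, or 0.46 ± 0.16 without the same array (adjusted p = 0.0325). With miR-4307-3p DHX29 was at 0.34 ± 0.16 and DHX36, which unwinds G-quadruplexes, at 0.34 ± 0.14, both without overlap of values and neither past the test. DHX34, a factor of nonsense-mediated decay, lay at -0.29 ± 0.135 in both comparisons and did not pass in either.

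DDX5 and DDX17 are close paralogues that act as transcriptional coregulators and as cofactors of the Drosha complex in microRNA processing. They passed in opposite directions with miR-4307-3p. DDX5 had 11.974, 12.277 and 12.001 in miR-4307-3p pull-downs, against 11.21, 11.49 and 11.27 in its input, and rose by 0.76 ± 0.22 (adjusted p = 0.0320). DDX17 had 6.24, 6.28 and 6.24 in the pull-down, against 6.66, 6.78 and 6.76 in its input, and fell by 0.48 on the log2 scale (SE 0.12, adjusted p = 0.0105). Both changes were free of overlap. The DDX5 call was lost without any 1 of the 6 miR-4307-3p arrays (adjusted p from 0.0548 to 0.130), and it had adjusted p = 0.000887 when the outlying miR-3118-3p array was left out. The DDX17 call was lost without input replicate 2 (0.0502).

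DDX17 was among the 2396 dimmest genes, as were DDX20 and DHX8 and no other helicase. Those 2396 genes had mean signals up to 6.69. DHX35, which rose with miR-3118-3p, lay near that level, with group means of 6.54 to 6.95. The lowest signals on the arrays were 5.53 to 5.56 in the pull-downs and 5.69 to 5.72 in the inputs. These 2396 genes had a median difference of -0.015 with miR-4307-3p, and 90 of them rose and 38 fell, where 770 and 585 of all 9581 genes did. With miR-3118-3p 151 of the dim genes rose and 91 fell, where 1216 and 1042 of all genes did. The part of low signal in the DDX17 and DHX35 calls was not tested. With miR-3118-3p DDX17 stood at 0.00 ± 0.12 and DDX5 at -0.33 ± 0.22. DDX5 had 10.39, 11.27 and 11.51 in miR-3118-3p pull-downs, against 11.23, 11.26 and 11.68 in its input, so replicate 1 was low. DHX9, RNA helicase A, did not pass, at 0.07 ± 0.20 with miR-3118-3p and 0.31 ± 0.20 with miR-4307-3p.

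**Figure D3:**
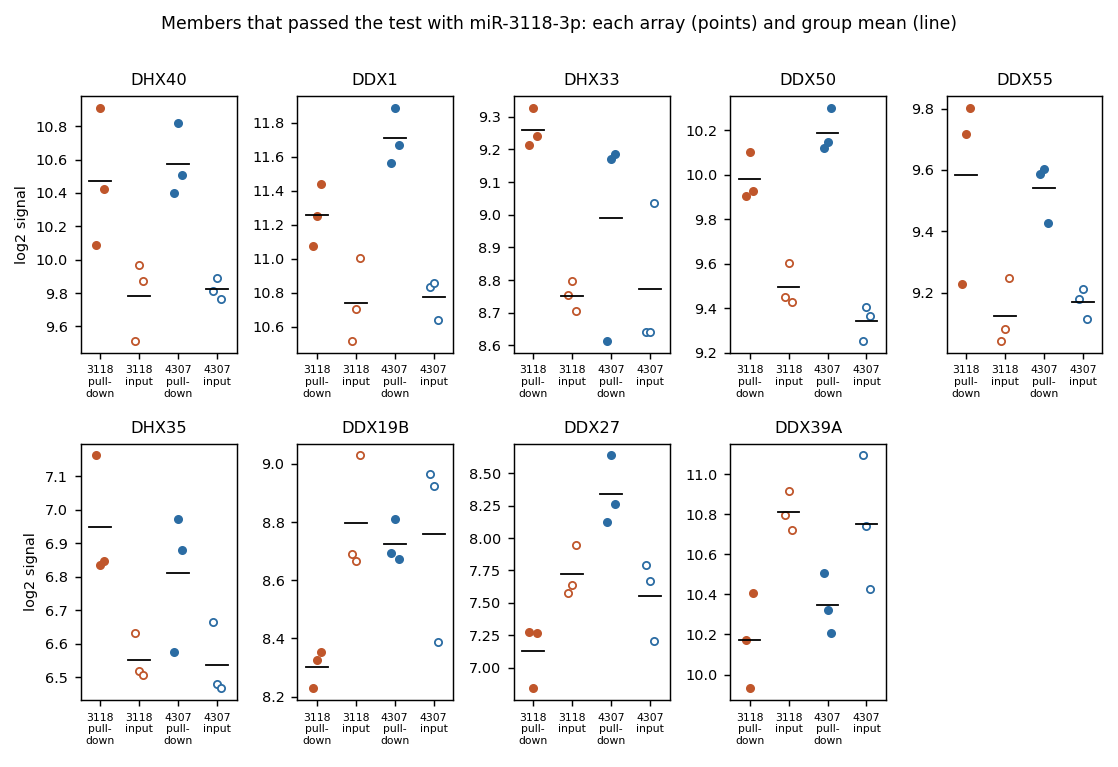
Log2 signal (y axis, its own range in each panel) on each array for the 9 helicases that passed with miR-3118-3p; filled points are pull-downs, open points inputs, and lines group means of 3 arrays. DDX55 is the panel in which a miR-3118-3p pull-down array, at 9.23, lies below an input array, at 9.25.

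Both helicases of mitochondrial ribosome assembly, DHX30 (by its brightest probe) and DDX28, stayed within 0.17 of 0 and did not pass. The second probe of DHX30 gave 0.23 ± 0.23 with miR-3118-3p and did not pass either. Of 4 helicases with other or less settled roles, DHX40 rose with both microRNAs. This is 25% of the 4 in each comparison, and 0 fell. Of all genes 8.04% rose with miR-4307-3p and 12.7% with miR-3118-3p. DHX40 had 10.40, 10.82 and 10.50 in miR-4307-3p pull-downs, against 9.81, 9.89 and 9.76 in its input, a rise of 0.75 ± 0.19 (adjusted p = 0.0128). It had 10.09, 10.91 and 10.42 in miR-3118-3p pull-downs, against 9.51, 9.97 and 9.87 in its input, a rise of 0.69 ± 0.19 (adjusted p = 0.0150). Neither pair overlapped. The first call was lost without pull-down replicate 2 (0.0755) or input replicate 3 (0.0511) of miR-4307-3p, the second without pull-down replicate 2 (0.0712) or input replicate 1 (0.0749) of miR-3118-3p and with those 6 arrays alone (0.0714). With its 3 probes averaged, the miR-3118-3p difference was 0.19 and was not called (adjusted p = 0.391). DDX59, DHX32 and DDX11, a DNA helicase of sister chromatid cohesion with a near-identical pseudogene, lay between -0.14 and 0.28 and did not pass.

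Counted by overlap alone, all 3 pull-down values were above all input values for 15 helicases and below for 4 with miR-4307-3p. Of all genes, 19.0% were so above and 20.1% below, 39.1% in all. With miR-3118-3p the counts were 5 above and 5 below, where 16.8% and 18.0% of all genes were, 34.8% in all.

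The next comparison asked whether recovery differed between the microRNAs, as the miR-3118-3p enrichment minus the miR-4307-3p enrichment. The difference was below 0 for 27 helicases and above 0 for 16, and below for 4564 and above for 5017 of all 9581 genes. It passed as negative for DDX10, DDX27 and DDX5, and no helicase was called in the other direction. Over all genes 4.73% were lower and 2.86% higher, against 6.98% and 0% of the helicases, and 9 helicases (20.9%) had an unadjusted p under 0.05, as had 19.6% of all genes. DDX10 differed by -2.10 ± 0.25 (adjusted p = 6.41e-05, 95% interval -2.62 to -1.57), and DDX27 by -1.38 ± 0.26 (adjusted p = 0.00300, 95% interval -1.93 to -0.83). These calls held in 22 of 22 other settings, with DDX10 at -1.925 ± 0.22 and DDX27 at -1.45 ± 0.26 without the first miR-3118-3p pull-down array.

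The difference for DDX5 was -1.09 ± 0.32 (adjusted p = 0.0453, 95% interval -1.76 to -0.42). It was -0.76 ± 0.21 without that array (adjusted p = 0.0222). In 9 of 22 other settings it was not called, namely without any 1 of the 6 miR-4307-3p arrays or of the 3 miR-3118-3p inputs (adjusted p from 0.0606 to 0.123). DDX52 (-0.88 ± 0.30, adjusted p = 0.0911) and DDX54 (-0.63 ± 0.23, adjusted p = 0.122) passed with the replicate block within each microRNA (0.00472 and 0.0226), and DDX52 also without miR-3118-3p pull-down replicate 3 (0.0183). The dimmer probe of DDX52 gave 0.06 ± 0.25, and with the probes averaged DDX52 was at -0.41 (adjusted p = 0.417). DDX23 stood at -0.61 ± 0.28 and did not pass (adjusted p = 0.250). For DDX17 the difference was 0.49 ± 0.16 (adjusted p = 0.0884). Without the first miR-3118-3p pull-down array it was called (0.56 ± 0.16, adjusted p = 0.0244).

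For the 3 helicases that rose with both microRNAs the difference did not pass, at -0.42 ± 0.21 for DDX1 (95% interval -0.87 to 0.03), -0.36 ± 0.17 for DDX50 (-0.72 to -0.01) and -0.06 ± 0.26 for the brightest probe of DHX40 (-0.62 to 0.50). Across the 43 helicases the 2 enrichments correlated at Pearson's r = 0.33 (Spearman's rho 0.45), and at r = 0.47 without DDX10. Over all genes r was 0.35 and rho 0.44. The arrays of the 2 microRNAs are separate, genes are not independent replicates, and the points share probes and normalization. Both differences were above 0 for 16 helicases and below 0 for 13, while 9 were above with miR-4307-3p alone and 5 with miR-3118-3p alone. Of all 9581 genes, 3005, 3353, 1458 and 1765 fell in these classes in the same order.

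**Figure D4:**
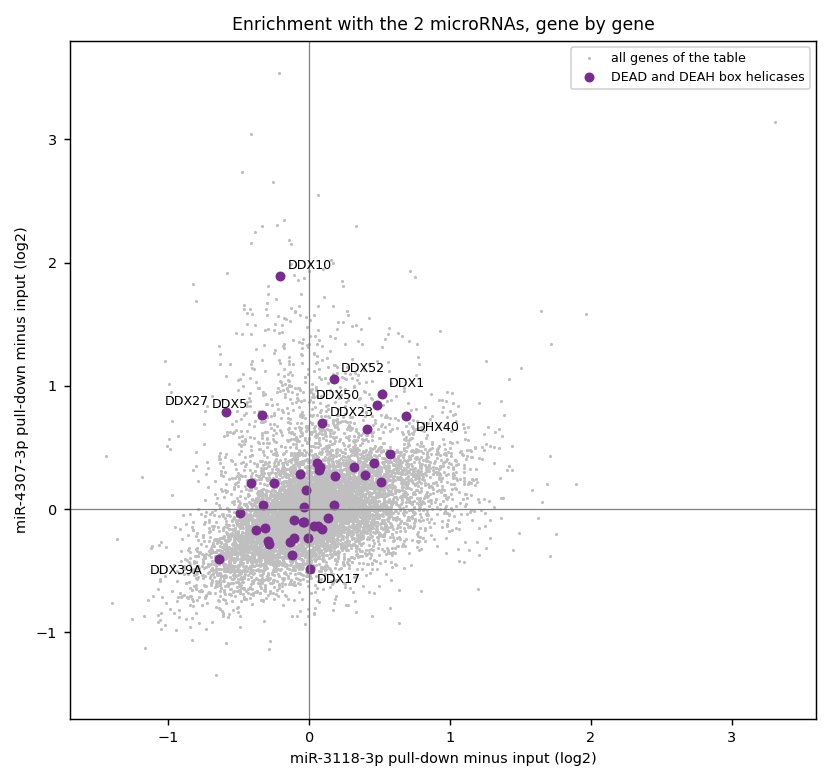
Pull-down minus input with miR-3118-3p (x axis, log2) against miR-4307-3p (y axis, log2) for all 9581 genes (grey) and the 43 helicases (purple). DDX10 is the highest helicase on the y axis (1.89), and DDX27 (-0.59 on the x axis, 0.78 on the y axis) lies in the upper left.

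In the inputs the helicases did not differ between the 2 transfections by the test. Of 43, 0 passed in either direction (miR-3118-3p input minus miR-4307-3p input), as did 0 of 9581 genes (limma, 0%), and 1 helicase, DHX9, and 160 genes had an unadjusted p under 0.05. The differences ran from -0.30 (DHX16) to 0.46 (DHX9). DHX9 had 7.35, 7.74 and 7.85 in the miR-3118-3p input, against 7.33, 7.48 and 6.75 in the miR-4307-3p input, and the groups overlapped. All miR-3118-3p input values lay above the miR-4307-3p ones for 1 helicase, DDX50, and below for 0, where 3.79% and 5.44% of all genes did (9.23% in all). DDX10 stood at 9.05 ± 0.13 and 9.02 ± 0.09 (SD, n = 3 each) and DDX27 at 7.72 ± 0.20 and 7.56 ± 0.31 in the same order.

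For 11 helicases the table held 2 or 3 probes, of which the brightest was taken. With miR-4307-3p all probes of a helicase had the same sign in 8 of 11 cases, and with miR-3118-3p in 6 of 11. The gap between a helicase's lowest and highest probe had a median of 0.34 and 0.28 in these comparisons. The dim second probe of DDX52 (mean signal 6.04) gave 0.31 ± 0.18 with miR-4307-3p, against 1.06 for the bright one (9.42). The probes of DHX40, with mean signals of 10.16, 8.02 and 6.41, gave 0.75, 1.08 and 0.27 with miR-4307-3p and 0.69, 0.26 and -0.37 with miR-3118-3p. Between the microRNAs they differed by -0.06 ± 0.26, -0.82 ± 0.23 (adjusted p over all probes = 0.0410) and -0.64 ± 0.25 (0.156) in the same order, so the second probe passed where the brightest did not. DDX19B had a second probe that fell further with miR-3118-3p (-0.88 ± 0.15) and another near the lowest signals (mean 5.79) that gave -0.145 ± 0.11. The second probe of DDX47, counterpart of yeast Rrp3 in small subunit assembly, fell with miR-3118-3p (-0.93 ± 0.24, adjusted p over all probes = 0.0133), while its brighter probe stood at -0.33 ± 0.17. The probes of DHX9 lay at 0.07 and -0.58 with miR-3118-3p and at 0.31 and -0.49 with miR-4307-3p, and none passed. DDX10, DDX1, DDX50, DDX27, DDX5, DDX17, DDX21 and DDX23 had 1 probe each.

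**Figure D5:**
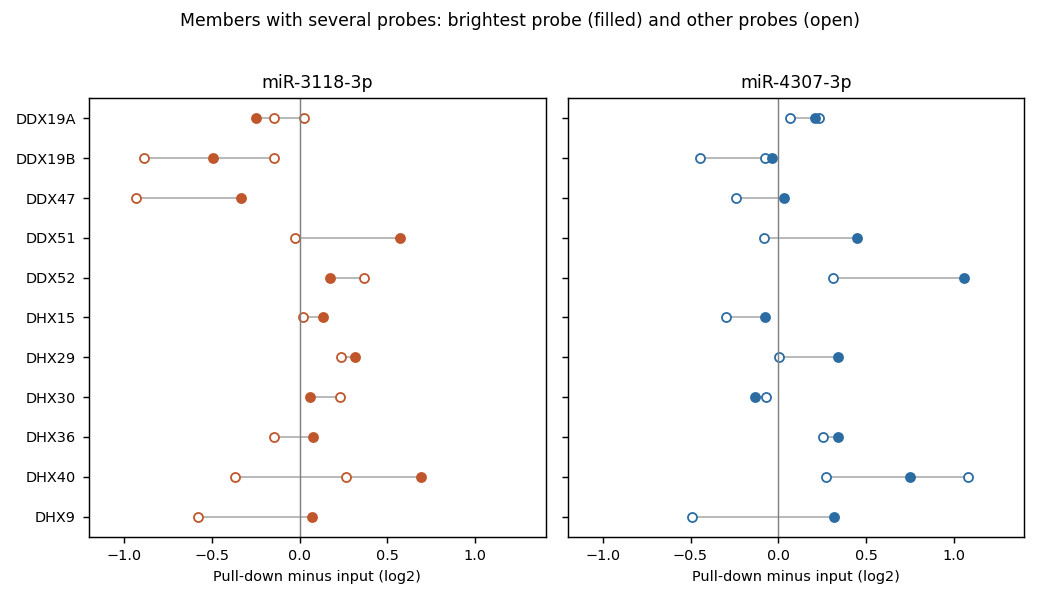
Pull-down minus input (x axis, log2) for each probe of the 11 helicases with several probes (y axis), with miR-3118-3p on the left and miR-4307-3p on the right; filled points are the brightest probes, which stand for the gene, and open points the others. DHX40 spans 1.06 with miR-3118-3p, from -0.37 to 0.69.

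Other RNA helicases without a DDX or DHX name were listed for comparison, and 15 of 22 were measured. With miR-4307-3p 2 rose and 0 fell, SUPV3L1, a mitochondrial RNA helicase (0.66 ± 0.15), and HELZ, a helicase with zinc fingers (0.65 ± 0.15). With miR-3118-3p 3 rose and 0 fell, HELZ by 1.35 ± 0.15, SUPV3L1 by 0.54 ± 0.15 and DICER1, the nuclease with a helicase domain that makes microRNAs, by 0.50 ± 0.15. The higher shares were 13.3% with miR-4307-3p and 20.0% with miR-3118-3p, where 8.04% and 12.7% of all genes rose. The medians were -0.01 and 0.06 in these comparisons, and 0 of 15 differed between the microRNAs by the test (2 with an unadjusted p under 0.05, a share of 13.3% against 19.6% of all genes).

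Of 51 proteins that bind or activate DEAD or DEAH box helicases, 41 were measured. With miR-4307-3p 14.6% rose and 9.76% fell, where 8.04% and 6.11% of all genes did, and with miR-3118-3p 4.88% rose and 7.32% fell, below the 12.7% and 10.9% of all genes. With miR-4307-3p 6 rose and 4 fell, the largest being GPATCH4, a G-patch protein of the nucleolus (1.43 ± 0.14), LSM14A, a partner of DDX6 in P-bodies (0.935 ± 0.18), GEMIN2 of the SMN complex (-0.87 ± 0.17), THOC1 of the THO complex, which loads DDX39B on mRNA (0.73 ± 0.19), and the G-patch splicing factor RBM17 (0.71 ± 0.14). With miR-3118-3p 2 rose and 3 fell, ALYREF, an export adaptor that binds DDX39B (-0.83 ± 0.24), RTRAF (-0.75 ± 0.14), PDCD4, an inhibitor of eIF4A (0.70 ± 0.15), CASC3 of the exon junction complex (0.61 ± 0.15) and the G-patch protein ZGPAT (-0.53 ± 0.16). RTRAF, a partner of DDX1 in the tRNA ligase complex, also fell by 0.62 on the log2 scale with miR-4307-3p (SE 0.14), where DDX1 rose. FAM98A, another gene of the list, rose there (0.43 ± 0.125). RTCB and FAM98B, listed as well, were not among the called cofactors in any comparison. The medians of the 41 were 0.10 with miR-4307-3p and -0.01 with miR-3118-3p. Between the microRNAs 2 were higher and 3 lower (4.88% and 7.32%, where 2.86% and 4.73% of all genes were), with GPATCH4 at -1.65 ± 0.19 (adjusted p = 6.41e-05).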

How the data were processed

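RNA of 12 Illumina bead arrays was analysed from the log2 values of the series matrix, which the authors deposited. The submitters' processing notes name lumi 2.2.1. Normalization, the probe filter, the genome build and the choice between plain log2 and a variance-stabilising transform are not stated in the labels or files. The deposited pre-normalization table was not used, since none of its 12 sample columns can be tied to a label, so the planned neqc alternative was not run. No detection filter was applied, and the number of arrays limits the precision.

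Probes were named by GEO's platform annotation, with symbols updated by identifier or synonym. Of 15025 probes 12354 had 1 symbol, 2 several, and 2669 were not listed. The probe with the highest mean stood for a gene. A limma 3.58.1 model (R 4.3.3) with 4 group means over all 12 arrays gave two-sided p-values, adjusted by Benjamini-Hochberg over 9581 genes, with 8 residual degrees of freedom. The fit was also run on simulated data, as a check of the code. Noise there was independent, with the same spread for a gene in all groups. These arrays have unequal spread and correlated replicate numbers, so that run does not bear on the calls here. Recomputed under every setting were the called members (up to 12) and the 3 largest uncalled ones of each comparison. Of each comparison list, up to 5 called genes were named. Array values of further members, and RTRAF and FAM98A with miR-4307-3p, were chosen after their values were seen. Members and lists were chosen with earlier results of these data known.

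No 2 arrays held identical values (0 pairs). The titles number the replicates. For pull-down and input arrays that share a number, deviations from the group means correlated at 0.204, 0.342 and 0.286 with miR-4307-3p, which pairs those arrays, and at 0.344, 0.0736 and 0.476 with miR-3118-3p, which does not by the rule of 0.1 for each pair. For each pull-down array of either microRNA, the input of the same number correlated highest among the 3 inputs of that microRNA. The main fit has no block, so its p-values leave such pairing out. With the replicate number as a block within each microRNA, DDX21 and DDX51 were added to the rises with miR-3118-3p and DDX54 to the falls. With miR-4307-3p the block added DDX51 and DDX55 to the rises and DDX39A to the falls. All helicases called in the main fit stayed called. Over all genes 16.8% then rose and 15.1% fell with miR-3118-3p, and 11.1% and 9.62% with miR-4307-3p. Figures were drawn with matplotlib 3.10.9.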

Additional observations from a re-analysis of the deposited data

Results flagged for a closer look

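For 3 helicases the enrichment with miR-3118-3p differed from that with miR-4307-3p by an interaction test in limma. DDX10 differed by -2.10, with groups that overlapped with miR-3118-3p and all 3 pull-down arrays above the inputs with miR-4307-3p. DDX27 differed by -1.38, with all 3 pull-down arrays below the inputs with miR-3118-3p and all 3 above with miR-4307-3p. DDX5 differed by -1.09, and the value was -0.76 without the first miR-3118-3p pull-down array, which read 10.39 where the others read 11.27 and 11.51. What these differences rest on was not tested.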

How the results depend on the processing

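None of the helicase differences recomputed, those called and the 3 largest uncalled ones of each comparison, changed sign (0 reversed). Several settings, such as the blocks, the 6 arrays alone or another adjustment, change only the spread or the p-value and could not reverse a sign. Single probes were not among the settings for named helicases. With miR-3118-3p the dimmest probe of DHX40 gave -0.37 and the dimmer one of DDX51 -0.025, opposite in sign to their brightest probes. The counts of called helicases moved more than the signs. With miR-3118-3p, the spread of its 6 arrays alone gave 1 higher and 1 lower in place of 6 and 3. A minimum difference of 0.5 gave 3 higher there, and counting every probe gave 5 lower probes, where 11.5% of all named probes were lower. With miR-4307-3p, array weights gave 15 higher and 4 lower in place of 9 and 1, where the 6 arrays alone gave 2 lower and where 0 were lower with a minimum difference of 0.5 or with the 2396 dimmest genes left out, since DDX17 is then not counted. With the replicate block within each microRNA the lower count was 2 with miR-4307-3p, where 9.62% of all genes were lower in place of 6.11%. In the difference between the microRNAs 5 helicases were then lower in place of 3, DDX52 and DDX54 being added. Of all genes 6.4% were lower there in place of 4.73%. Array weights gave 1 helicase higher in that difference, where 6.89% of all genes were higher in place of 2.86%. Leaving out 1 array at a time, the counts ranged with miR-3118-3p from 1 to 7 higher and from 0 to 6 lower. They ranged with miR-4307-3p from 4 to 10 higher and from 0 to 2 lower, and for the difference from 0 to 1 higher and from 2 to 4 lower. Over all genes these settings gave 8.48% to 17.7% higher and 6.51% to 15.2% lower with miR-3118-3p. The ranges with miR-4307-3p were 5.42% to 11% and 2.44% to 10.1%, and for the difference 1.75% to 7.87% and 3.71% to 6.18%. Counts for input against input were 0 in every setting run. A block within each microRNA leaves no contrast between inputs, so that setting gave no value there, and the difference between the microRNAs needs all 12 arrays, so the setting with 6 arrays gave none for it. The block moved no other count of called helicases by over 1.5 times. Distance from background is unknown for these arrays. Over all genes, array weights gave 1593 higher and 1619 lower and the 6 arrays alone 1266 and 1183 with miR-4307-3p, in place of 770 and 585, and the 6 arrays alone gave 575 and 409 with miR-3118-3p, in place of 1216 and 1042.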
